A study of Homo sapiens with 9 samples.

Results

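MCF-10A cells in which doxycycline induced ERK2 Y261A were compared with MCF-10A cells in which it induced an empty vector, over every gene that the arrays measured with a row of its own. The comparison holds 6 of the 9 arrays of the series, 3 titled Y261A ERK2 and 3 titled Vec control, and it was run over the 22411 genes that had a row with 1 gene symbol. MCF-10A is an established, non-tumorigenic line of human breast epithelial cells. All groups carried a Tet-on system and received doxycycline, and RNA was taken after 7 days of growth in medium with horse serum, epidermal growth factor, insulin, hydrocortisone and cholera toxin. The 3 further arrays came from cells induced to express ERK2 D319N, and they entered the same fit and served as a second comparison. A group expressing wild-type ERK2 was not analysed here. The labels call the replicates individual without saying whether they were separate cultures or lines, and the p-values thus cover no more than the array-to-array spread, which may be technical.

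ERK2 is a mitogen-activated protein kinase that MEK phosphorylates after RAS and RAF are switched on. It recognises its partners through docking surfaces away from the catalytic site. The tyrosine replaced in Y261A is part of a hydrophobic pocket for DEF motifs, short peptides in substrates such as FOS family proteins and ELK1, and its loss weakens their binding. The aspartate replaced in D319N belongs to the common docking domain on another face of the kinase, which takes up the D motif of phosphatases, MEK and the RSK kinases. In breast epithelium the pathway is known for its part in growth factor responses, motility and the loss of epithelial form.

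A value is the deposited log2 RMA signal of a gene on an array, so a difference of 1 is a 2-fold difference in signal. MAPK3, which encodes the related kinase ERK1, averaged 7.96 in Y261A cells and 7.96 in vector cells. The labelled cell type was checked on its markers. The 14 of 19 breast epithelial markers measured had a mean level of 9.07 to 9.15 on the Y261A arrays and 9.16 to 9.22 on the vector arrays, and all 14 lay above the background mean in vector cells. Y261A replicate 3 stood apart from the other Y261A arrays. Replicates 1 and 2 correlated at 0.9982, replicate 3 correlated with them at 0.9958 and 0.9946, and limma gave replicate 3 an array weight of 0.12. The deviation of replicate 3 also followed the level of a gene. Over 2304 genes with a mean level from 8 to below 10, the median difference from the vector mean was -0.02, -0.07 and -0.18 on Y261A replicates 1, 2 and 3, and between -0.01 and 0.01 on the vector arrays. Over 7155 genes from 4 to below 6 it was 0.00, 0.00 and 0.07. Every call was therefore checked without Y261A replicate 3.

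Few genes separated Y261A cells from vector cells, and most of those differed by less than 1.5-fold. At an adjusted p under 0.05, 79 genes were called, 0.353% of the genes tested, of which 31 were higher (0.138%) and 48 were lower (0.214%) in Y261A cells. Only HSD17B2 and FN1 passed a 2-fold difference, 14 of the 79 reached 1.5-fold (8 higher and 6 lower), and 19 differed by less than 1.2-fold. The median log2 difference was 0.46 among the called rises and -0.36 among the called falls, against 0.00 over all genes. In all 79 genes the 3 Y261A arrays lay on one side of the 3 vector arrays, which also held for 13.4% of all genes (4.11% higher and 9.24% lower). An unadjusted p under 0.05 was reached by 2320 genes (10.4%), 661 higher (2.95%) and 1659 lower (7.40%). The count of 79 leaned on single arrays. It was 9 without Y261A replicate 1, 9 without Y261A replicate 2, 15 without vector replicate 1, 12 without vector replicate 2, 41 without D319N replicate 1 and 133 without D319N replicate 2. The called genes were 74 protein-coding genes, 4 pseudogenes and 1 long noncoding RNA. None of 1041 miRNA genes was called by limma (102 at an unadjusted p under 0.05), and none of 240 snoRNA genes (25 at an unadjusted p under 0.05).

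**Figure D1:**
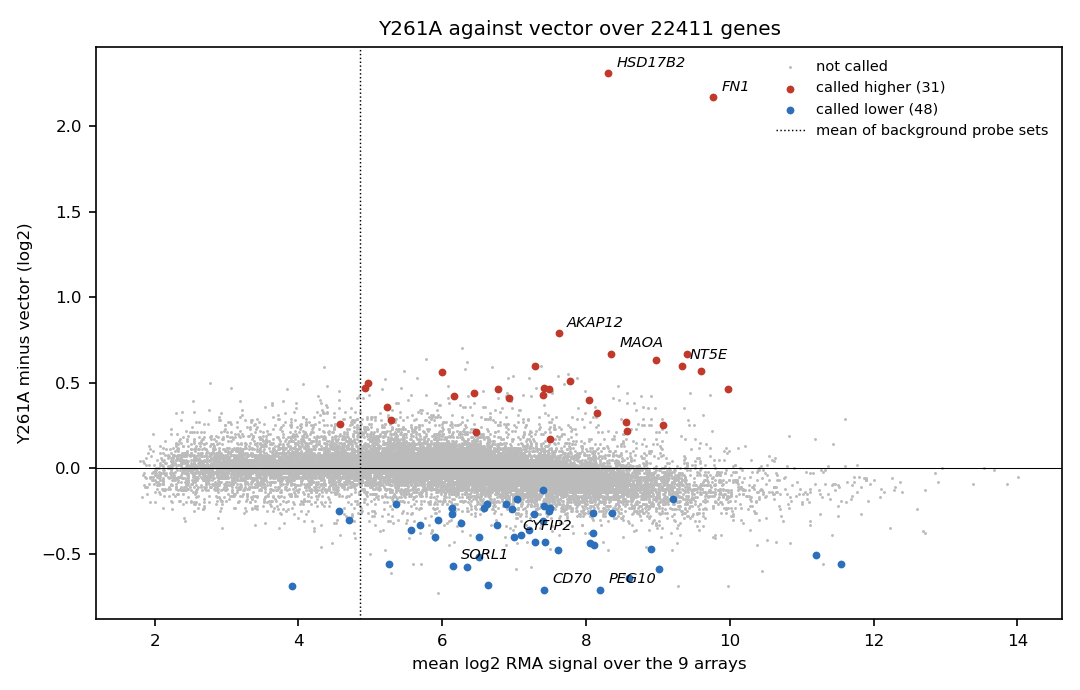
Each point is 1 of the 22411 genes, with its mean log2 signal over the 9 arrays on the horizontal axis and its log2 difference, Y261A minus vector, on the vertical axis, and called genes are coloured by direction. FN1 at 2.17 and HSD17B2 at 2.31 lie far above all other genes, and the cloud sags slightly below 0 at levels above 8.

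Without Y261A replicate 3, 46 genes were called (0.205% of genes tested), 28 higher and 18 lower, so that rises outnumbered falls, against 31 higher and 48 lower over all 3 Y261A arrays. Of the 79 genes, 33 were among the 46. The 18 rises still called were those of HSD17B2, FN1, AKAP12, SLC7A11, MAOA, LTBP1, NT5E, RPGR, DKK1, ANTXR2, IL1RL1, FAP, AKR1C2, GCNT1, DUSP10, AKR1C1, GCLC and KRT17P1. The 15 falls still called were those of PEG10, CD70, SYTL5, SORL1, CYP4X1, TACC2, COBL, NUP210, CYFIP2, SLC1A3, LPIN1, ANKRD2, LIMCH1, ARHGAP26 and PODXL. The other 46 called genes lost their call without replicate 3, with an adjusted p from 0.0557 (OAS1, for example) to 0.136 (CXADR). All 79 genes kept their sign, which was fixed in advance because their 3 Y261A arrays lay on one side of the vector arrays. No difference moved by more than 0.09. Replicate 3 was the Y261A array strictly nearest to the vector mean in 28 of the 79 genes, replicate 1 in 27 and replicate 2 in 5. These genes were called with replicate 3 in the fit, so the counts do not describe that array over all genes. When each of the 9 arrays was left out in turn, 9 genes were called in every fit. They were HSD17B2, FN1, NT5E and AKR1C1, which were higher in Y261A cells, and PEG10, CD70, SORL1, TACC2 and CYFIP2, which were lower.

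HSD17B2 encodes a dehydrogenase that converts estradiol to the weaker estrone. Its level was 8.35, 8.40 and 8.26 on the 3 Y261A arrays, 10.63, 10.47 and 10.62 on the D319N arrays, and 5.99, 6.08 and 6.01 on the vector arrays. The groups did not overlap, and the Y261A arrays lay about midway between the others. The difference between Y261A and vector was 2.31 ± 0.06 (log2, SE), a 4.95-fold rise with an adjusted p of 7.9e-06, and it was 2.35 without Y261A replicate 3. FN1 encodes fibronectin, the matrix glycoprotein that integrins bind. Its level was 9.65, 9.60 and 9.52 on the Y261A arrays, 12.33, 12.32 and 12.29 on the D319N arrays, and 7.32, 7.45 and 7.46 on the vector arrays. Here too each group formed a tight cluster of its own. FN1 rose 4.51-fold in Y261A cells (2.17 ± 0.05, adjusted p = 7.71e-06) and differed by -2.73 ± 0.05 from D319N cells (adjusted p = 1.1e-06).

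NT5E, the surface enzyme CD73 that makes adenosine from AMP, had levels of 9.14, 9.12 and 9.08 in Y261A cells and 8.51, 8.56 and 8.46 in vector cells. The gap between the groups was larger than the range within either, and NT5E rose by 0.60 ± 0.03 (adjusted p = 0.00125). AKR1C1, an aldo-keto reductase that inactivates progesterone and is a classical NRF2 target, measured 8.10, 8.05 and 8.05 in Y261A cells against 7.68, 7.71 and 7.62 in vector cells. It rose by 0.40 ± 0.03 (adjusted p = 0.00288), with the reservation that its sequence is close to those of the other AKR1C genes.

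PEG10 and CD70 had the steepest of the falls called in every left-out fit. PEG10, a paternally expressed imprinted gene derived from a retrotransposon, measured 8.11, 8.11 and 8.05 in Y261A cells against 8.76, 8.85 and 8.79 in vector cells. It fell by 0.71 on the log2 scale (SE 0.03, adjusted p = 0.000216). CD70, the ligand of the TNF receptor family member CD27, had levels of 7.29, 7.28 and 7.17 in Y261A cells and 7.89, 8.04 and 7.93 in vector cells, and it fell by 0.71 as well (SE 0.05, adjusted p = 0.00352). SORL1, a sorting receptor that moves cargo between the Golgi and endosomes, varied least of these genes. It measured 6.16, 6.16 and 6.15 in Y261A cells against 6.73, 6.71 and 6.75 in vector cells, a difference of -0.57 (SE 0.02, adjusted p = 0.000104). TACC2, a centrosomal coiled-coil protein, averaged 8.22 ± 0.01 in Y261A cells and 8.66 ± 0.04 in vector cells (SD, n = 3 each). CYFIP2, a subunit of the WAVE complex that drives branched actin, averaged 7.08 ± 0.02 in Y261A cells and 7.48 ± 0.03 in vector cells. Both fell by about the same step, TACC2 by 0.44 (adjusted p = 0.000989) and CYFIP2 by 0.40 (adjusted p = 0.00091).

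**Figure D2:**
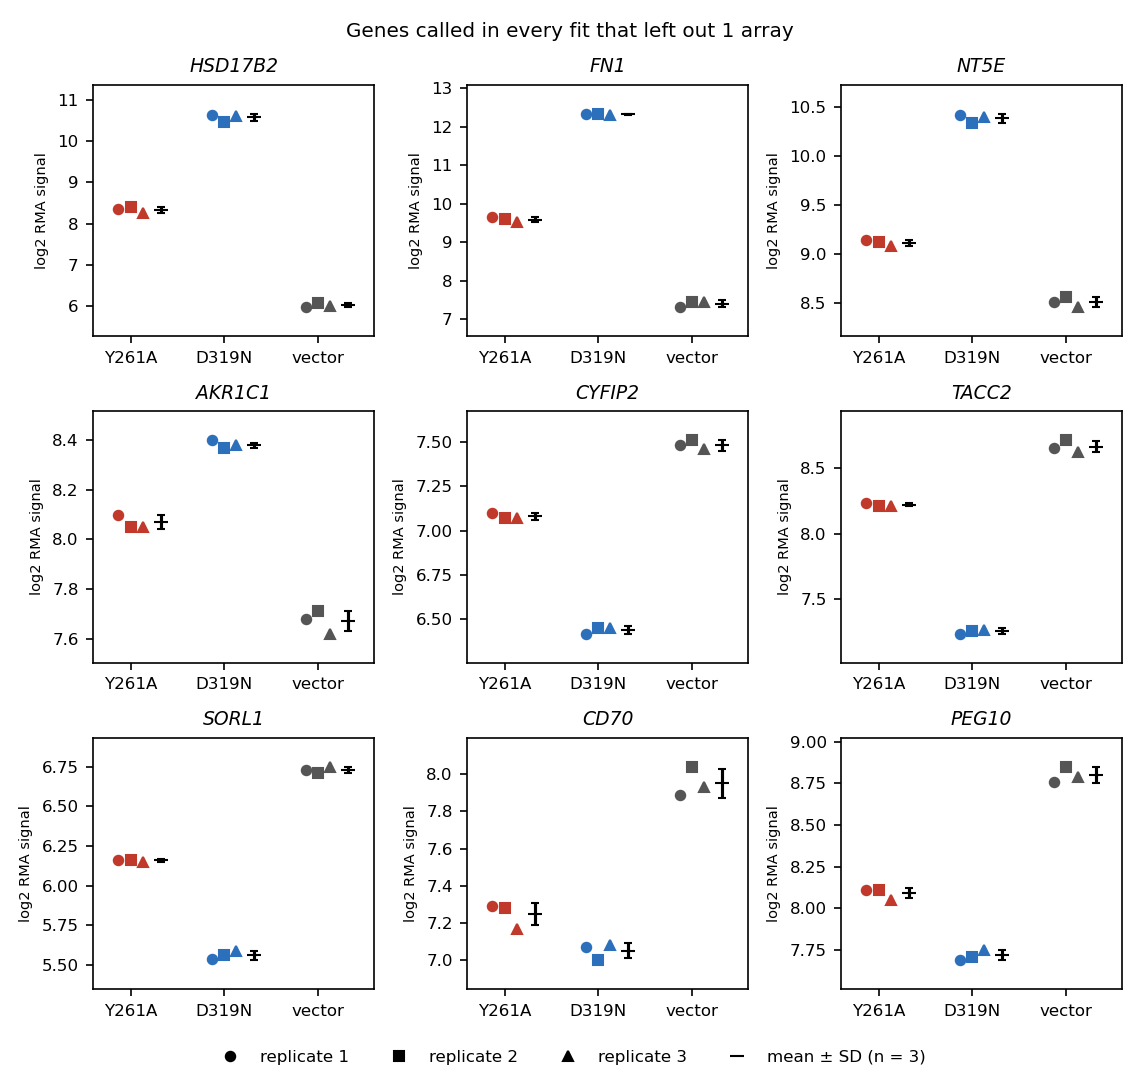
Log2 signal of the 9 genes called in every fit that left out 1 array, with a point for each array and a bar for the group mean, in the order Y261A, D319N and vector. In every panel the Y261A arrays sit between the D319N and the vector arrays, from 8.26 to 8.40 for HSD17B2 and from 6.15 to 6.16 for SORL1.

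LTBP1, which holds latent TGF-beta in the matrix, measured 8.94, 8.94 and 8.77 in Y261A cells against 8.29, 8.26 and 8.20 in vector cells. The lowest Y261A array, replicate 3, still lay above every vector array, and LTBP1 rose by 0.63 ± 0.06 (adjusted p = 0.0158). DCN, which encodes the proteoglycan decorin, measured 5.61, 5.61 and 5.48 against 5.01 on each vector array, a rise of 0.56 ± 0.07 (adjusted p = 0.033) that had an adjusted p of 0.0798 without replicate 3. FAP, a surface protease typical of activated fibroblasts, rose by 0.47 ± 0.05 (adjusted p = 0.025). ITGB6 pairs with ITGAV to form a fibronectin receptor that also activates latent TGF-beta, and it rose by 0.44 ± 0.05 (adjusted p = 0.025, and 0.0705 without replicate 3). ANTXR2, a receptor for basement membrane proteins and anthrax toxin, rose by 0.51, the adhesion scaffold NEDD9 by 0.28, the complement inhibitor CD55 by 0.27, and GCNT1, which branches mucin-type glycans, by 0.46. In each of these the Y261A level lay below the D319N level in the direct test, with NEDD9 at 5.16 in Y261A cells, 5.85 in D319N cells and 4.87 in vector cells.

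Most matrix genes were not called, as held for the genes tested as a whole. Over all genes, 0.138% were called higher and 0.214% lower, and 10.4% reached an unadjusted p under 0.05. Of 14 genes for fibronectin and its integrin receptors, 2 rose, FN1 and ITGB6, none fell, and the median difference was 0.03, against 0.00 over all genes. ITGA5, the alpha subunit of the main fibronectin receptor, measured 9.23, 9.19 and 9.06 in Y261A cells against 8.70, 8.70 and 8.80 in vector cells. The arrays did not overlap, yet the difference of 0.43 ± 0.07 had an adjusted p of 0.0684. Of 23 matricellular proteins and proteoglycans, DCN and FAP rose and none fell (median 0.04). None of 22 collagen and crosslinking genes was called by limma (4 at an unadjusted p under 0.05), none of 14 laminin, integrin and hemidesmosome genes (4) and none of 20 plasminogen activators, metalloproteinases and inhibitors (5). Their medians were 0.06, 0.04 and 0.03. Without replicate 3, ITGA2 passed in the laminin receptor group (0.50, adjusted p = 0.00723), and ITGAV passed in the fibronectin receptor group (0.31, adjusted p = 0.0418).

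Promoter sequence was available from RefSeq (GRCh38.p14, 250 bases before to 50 bases after the annotated start) for 24 of the 31 higher and 33 of the 48 lower genes. HSD17B2 and PEG10 had none in that table. Exact matches on either strand were counted for 6 motifs, namely the cAMP response element (CRE) TGACGTCA, the AP-1 site TGACTCA, the ETS core CCGGAAG, the E-box CACGTG, the antioxidant response element TGACNNNGC and the TATA box TATAAA. The CRE stood in 3 of 24 higher genes (12.5%), in 0 of 33 lower genes and in 2.58% of 15374 promoters of the genes tested. The AP-1 site stood in IL1A alone among the higher genes and in no lower gene, against 3.95% of all promoters. The ETS core stood in 4 of 24 higher and 1 of 33 lower genes (13.7% of all), the antioxidant element in 5 and 7 (14.6%), the TATA box in 5 and 3 (9.46%) and the E-box in 1 and 1 (8.55%). These matches are a description of short windows and were not tested. The 3 promoters with a CRE are shown because they belong to FN1, LTBP1 and ARG2, and the capitals mark the CRE. They lie on GRCh38.p14 at chr2:215436019-215436318 (FN1, minus strand), chr2:32946703-32947002 (LTBP1, plus strand) and chr14:67619670-67619969 (ARG2, plus strand), each written 5′ to 3′ in the direction of transcription.
FN1: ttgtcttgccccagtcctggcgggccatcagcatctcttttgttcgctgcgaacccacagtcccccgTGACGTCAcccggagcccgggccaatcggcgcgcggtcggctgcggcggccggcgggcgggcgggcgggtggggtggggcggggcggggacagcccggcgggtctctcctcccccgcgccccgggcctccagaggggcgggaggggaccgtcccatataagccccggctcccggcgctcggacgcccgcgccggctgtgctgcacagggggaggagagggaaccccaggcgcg
LTBP1: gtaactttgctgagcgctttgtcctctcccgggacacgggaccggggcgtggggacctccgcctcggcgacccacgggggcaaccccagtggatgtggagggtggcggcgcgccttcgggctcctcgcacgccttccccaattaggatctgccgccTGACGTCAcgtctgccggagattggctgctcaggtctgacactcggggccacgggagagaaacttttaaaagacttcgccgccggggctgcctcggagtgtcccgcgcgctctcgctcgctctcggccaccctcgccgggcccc
ARG2: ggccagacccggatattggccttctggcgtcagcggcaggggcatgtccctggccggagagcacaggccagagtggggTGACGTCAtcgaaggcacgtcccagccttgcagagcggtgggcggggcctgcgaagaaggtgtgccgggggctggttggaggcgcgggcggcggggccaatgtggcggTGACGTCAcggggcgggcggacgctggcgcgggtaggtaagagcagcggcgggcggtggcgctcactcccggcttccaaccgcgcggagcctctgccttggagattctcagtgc
The CRE began 183 bases before the start in FN1, 94 bases before it in LTBP1, and 172 and 64 bases before it in ARG2. In LTBP1 and FN1 the Y261A level lay between those of D319N and vector, whereas in ARG2 it lay above both.

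SLC7A11, the transporter that imports cystine for glutathione synthesis, measured 9.70, 9.64 and 9.40 in Y261A cells, 9.70, 9.71 and 9.79 in D319N cells and 8.97, 8.93 and 8.82 in vector cells. Replicate 1 of Y261A reached the lowest D319N level, and replicates 2 and 3 lay below all 3 D319N arrays. SLC7A11 rose by 0.67 ± 0.08 against vector (adjusted p = 0.025, and 0.0109 without replicate 3), and the difference from D319N was -0.15 ± 0.08 (adjusted p = 0.205), which does not show that the mutants are equal. GCLC, the catalytic subunit of the first enzyme of glutathione synthesis, measured 8.36, 8.37 and 8.24 in Y261A cells, 8.13, 8.09 and 8.13 in D319N cells and 7.97 to 8.03 in vector cells. It rose by 0.32 ± 0.04 (adjusted p = 0.0259, and 0.00818 without replicate 3). AKR1C2, a reductase of dihydrotestosterone, rose by 0.46 ± 0.04 (adjusted p = 0.0109), and the pseudogene AKR1C7P by 0.36 ± 0.05 (adjusted p = 0.0437). The AKR1C genes lie on chromosome 10 and are nearly identical in sequence, so the array may read one through another.

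Of 27 genes of cystine import, glutathione synthesis and the NRF2 response, 4 rose (SLC7A11, GCLC, AKR1C1 and AKR1C2) and none fell, with 4 and 0 also without replicate 3. The median of the list was -0.03, and 5 members were higher and 8 lower at an unadjusted p under 0.05. Over all genes, 0.138% were called higher, and 2.95% were higher and 7.40% lower at an unadjusted p under 0.05. The list has a median level of 8.62, where all genes also lay lower on the Y261A arrays. Its median was 0.00 without replicate 3 and 0.04 with quantile normalization. In steroid, retinoid and monoamine metabolism, 2 of 27 genes rose, HSD17B2 and MAOA, with a median of 0.02. Of 18 enzymes of amino acid and urea metabolism, ARG2 rose and none fell (median -0.01).

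A small set of genes in Y261A cells lay outside the range spanned by D319N and vector cells. MAOA, the mitochondrial oxidase that breaks down serotonin and noradrenaline, measured 8.96, 8.87 and 8.68 in Y261A cells, 8.09, 7.96 and 8.15 in D319N cells and 8.18, 8.18 and 8.13 in vector cells. Every Y261A array lay above the 6 others, by 0.67 ± 0.08 on average over vector (adjusted p = 0.0238) and by 0.77 ± 0.08 over D319N (adjusted p = 0.000897). ARG2, the mitochondrial arginase, measured 7.22, 7.33 and 7.14 in Y261A cells, 6.83, 6.67 and 6.73 in D319N cells and 6.79, 6.87 and 6.79 in vector cells. It rose by 0.41 ± 0.06 over vector (adjusted p = 0.0481) and by 0.49 over D319N (adjusted p = 0.00207). The call against vector was close to the threshold, with an adjusted p of 0.0705 without replicate 3 and a call in 1 of 9 left-out fits.

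KCNIP3, a calcium-binding protein that acts as a potassium channel subunit and a transcriptional repressor, was the only called fall of this kind. It measured 7.85, 7.74 and 7.87 in Y261A cells, 8.18, 8.18 and 8.31 in D319N cells and 8.28, 8.21 and 8.32 in vector cells. The 3 Y261A arrays lay below all 6 others, and the difference was -0.45 ± 0.05 from vector (adjusted p = 0.0224) and -0.40 ± 0.05 from D319N (adjusted p = 0.00238). Without replicate 3 the adjusted p against vector was 0.0587. KRT17P1 and KRT17P2, transcribed pseudogenes of the basal keratin gene KRT17 on chromosome 17, differed in another way. KRT17P1 averaged 9.32 ± 0.01 in Y261A cells, 8.81 ± 0.04 in D319N cells and 9.07 ± 0.02 in vector cells (SD, n = 3 each), so the mutants lay on opposite sides of the vector. KRT17P2 averaged 8.80, 8.33 and 8.59 in the same groups. Their sequences are close to that of KRT17, and the source of the signal is uncertain. The other genes above both groups were GCLC, FUZ, a ciliogenesis and planar polarity gene (0.17 over vector and 0.15 over D319N), and FRMPD4, a scaffold protein of neurons (0.26 over each). FRMPD4 averaged 4.75 in Y261A cells, 4.49 in D319N cells and 4.49 in vector cells, under the background mean of 4.85. FUZ was called in none of the 9 left-out fits.

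**Figure D3:**
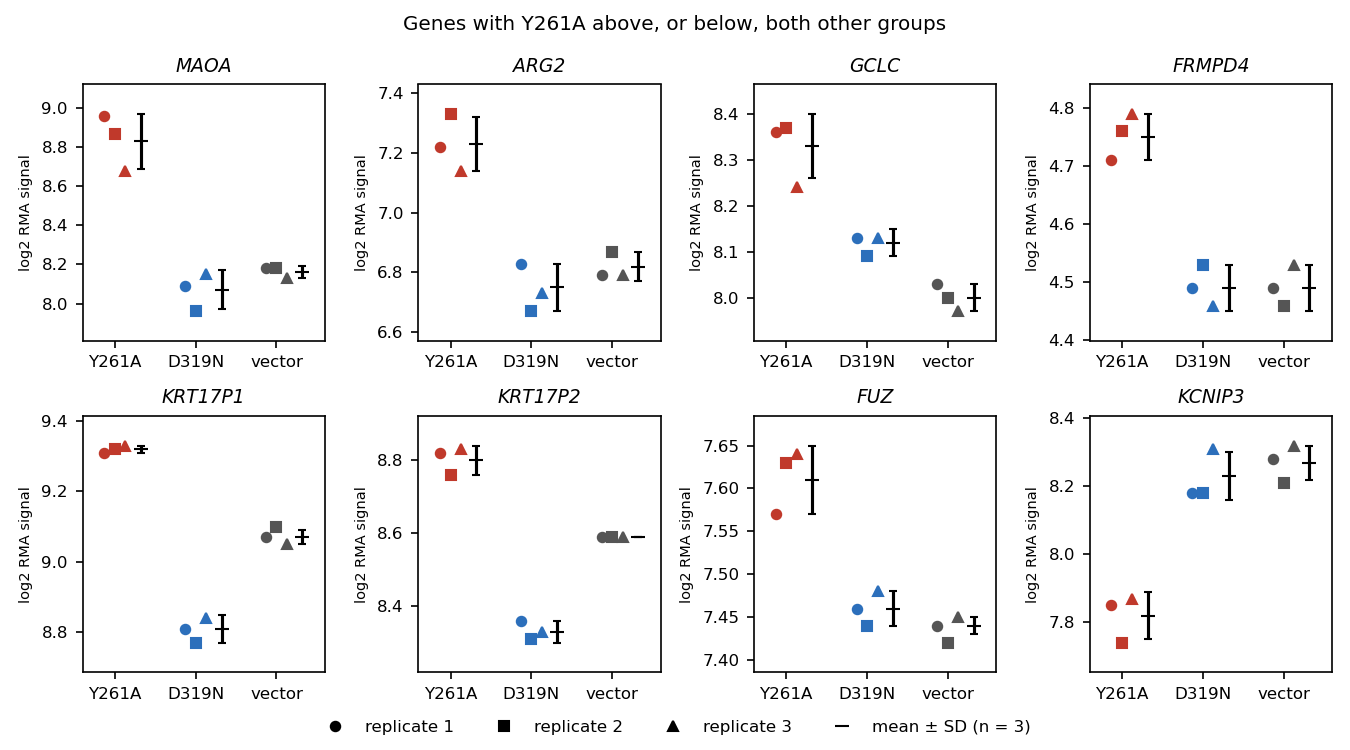
Log2 signal of the 8 called genes whose Y261A level differed from D319N and from vector in the same direction, with a point for each array and a bar for the group mean, in the order Y261A, D319N and vector. Y261A lies above both other groups in 7 panels, and below both in the panel of KCNIP3.

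For the remaining called genes the Y261A level mostly lay between vector and D319N. The comparisons of each mutant with vector share the vector arrays, so only the direct contrast between the mutants tests a difference between them. Over all genes that contrast called 14.6%, 4.72% higher and 9.92% lower in Y261A cells. Of the 31 genes that were higher than vector, 21 were lower in Y261A than in D319N cells, 7 were higher and 3 were not called (SLC7A11, IL1A and AKR1C7P). Of the 48 genes that were lower than vector, 36 were higher in Y261A than in D319N cells, KCNIP3 was lower and 11 were not called. Against vector, D319N cells had 16.6% of all genes called, 8.93% higher and 7.66% lower, including 24 of the 31 as higher and 47 of the 48 as lower. The 11 falls without a call between the mutants included LAPTM5, IFITM1, IFITM2, SYTL5 and SCD. SCD, which makes monounsaturated fatty acids, measured 11.08, 10.91 and 10.89 in Y261A cells, 11.18, 11.08 and 11.23 in D319N cells and 11.46, 11.52 and 11.41 in vector cells.

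**Figure D4:**
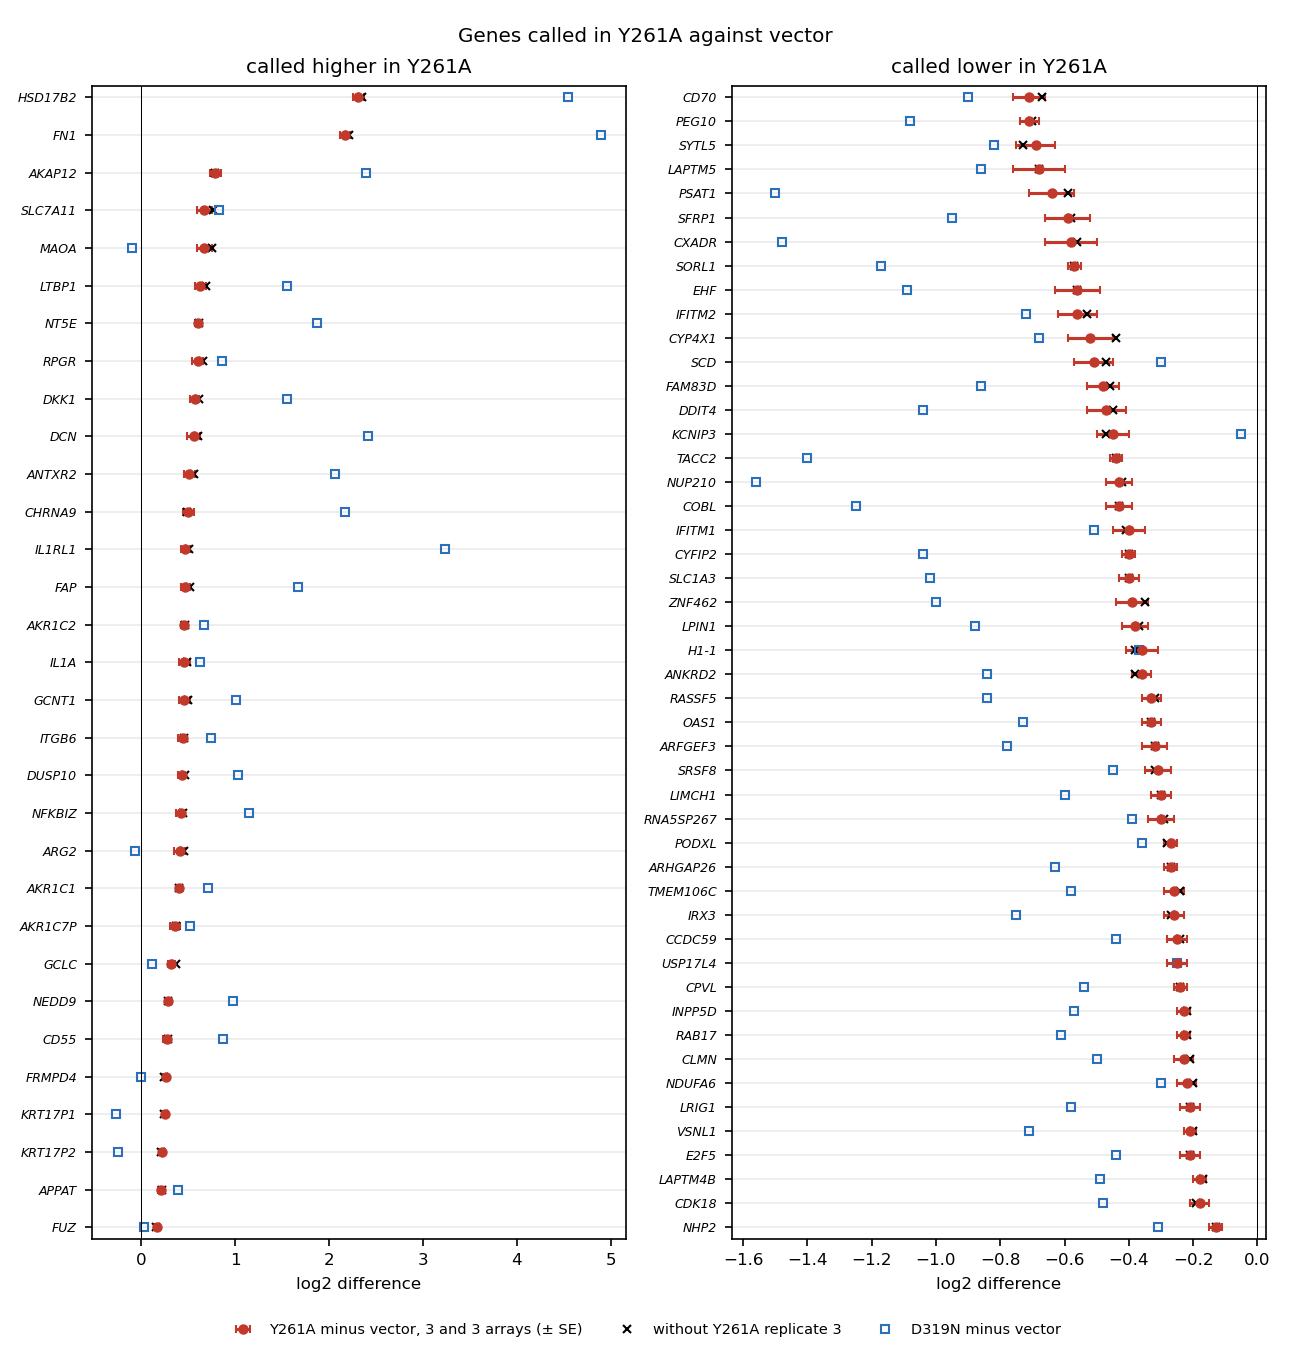
Log2 difference from vector for the 79 called genes, 31 higher and 48 lower, with the Y261A difference and its standard error, the Y261A difference without Y261A replicate 3, and the D319N difference as separate marks. The values without replicate 3 lie within 0.09 of those with it, and the D319N marks lie farther from 0 for most genes.

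Scaffolds, receptors and other signalling genes were called in both directions. AKAP12, a scaffold for protein kinases A and C, measured 7.35 on all 3 Y261A arrays, 8.87, 8.90 and 9.08 on the D319N arrays and 6.46, 6.61 and 6.60 on the vector arrays. It rose by 0.79 ± 0.06 against vector (adjusted p = 0.00669, and 0.0307 without replicate 3). RMA's median polish can return 1 value for several arrays, and 9 of the 79 genes had the same value on all 3 Y261A arrays. DKK1, a secreted inhibitor of WNT signalling, measured 9.49, 9.51 and 9.39 in Y261A cells against 8.93, 8.88 and 8.87 in vector cells and rose by 0.57 ± 0.05 (adjusted p = 0.00815). SFRP1, another secreted WNT inhibitor, measured 8.94, 8.94 and 8.91 in Y261A cells against 9.57, 9.45 and 9.55 in vector cells and fell by 0.59 (SE 0.07, adjusted p = 0.0218). RPGR, a protein of the ciliary transition zone, measured 7.43, 7.50 and 7.29 in Y261A cells against 6.86, 6.79 and 6.77 in vector cells and rose by 0.60 ± 0.06 (adjusted p = 0.0109), and the long noncoding RNA APPAT rose by 0.21 (adjusted p = 0.0433). The 2 WNT inhibitors moved in opposite directions, the rest of the 28 WNT genes were not called, and the median was 0.02. Of all genes tested, 0.353% were called.

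Among cytokine genes, IL1A, an epithelial alarm cytokine, rose by 0.46 ± 0.06 (adjusted p = 0.033). IL1RL1, the receptor of interleukin-33, rose by 0.47 ± 0.05 (adjusted p = 0.0218), at 4.15 in Y261A cells and 3.68 in vector cells, both under the background mean. CHRNA9, a nicotinic receptor subunit, rose by 0.50 at 4.59 in Y261A cells and 4.08 in vector cells, again under that mean. NFKBIZ, a nuclear cofactor of NF-kB, rose by 0.42 ± 0.05 (adjusted p = 0.0287). CXCL8, the neutrophil chemokine, measured 6.11, 6.11 and 5.90 in Y261A cells against 5.28, 5.23 and 5.50 in vector cells, and its difference of 0.70 ± 0.10 stood just outside the threshold (adjusted p = 0.0504). In the list of 27 chemokines and cytokines, IL1A was the only call, 8 members were higher and 1 lower at an unadjusted p under 0.05, and the median was 0.02. Without replicate 3 none of the list was called, and 9 members lay under the background mean in vector cells. Among all genes, 0.138% were called higher, and 2.95% were higher and 7.40% lower at that unadjusted p. AFF1, EPGN, CAPN8 and PCDH1 followed CXCL8 with an adjusted p of 0.0505 each and differences of -0.35, -0.62, -0.30 and 0.25. The called genes nearest the threshold on its inner side were FUZ (adjusted p = 0.0498) and ARG2 (0.0481).

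Calls were rare among transcripts known to follow or restrain ERK activity, as they were over all genes (0.353%). An unadjusted p under 0.05 was reached by 10.4% of all genes. Of 16 ERK feedback inhibitors, DUSP10 alone was called. It is a phosphatase that acts on JNK and p38 rather than on ERK, and it measured 7.39, 7.38 and 7.26 in Y261A cells against 6.92, 6.89 and 6.92 in vector cells, a rise of 0.43 ± 0.04 (adjusted p = 0.0158). DUSP6, the cytoplasmic ERK phosphatase, differed by -0.01 ± 0.08 (adjusted p = 0.995) and SPRY4, an inhibitor upstream of RAF, by -0.04 ± 0.07 (adjusted p = 0.812). The sign of DUSP6 turned without replicate 3 (0.07) and with quantile normalization (0.03). None of 21 AP-1 and EGR immediate early factors was called by limma (3 at an unadjusted p under 0.05), none of 10 ETS factors downstream of ERK (3) and none of 16 kinases and scaffolds of the cascade (4). EGR1, an immediate early factor induced through ELK1, measured 8.17, 8.11 and 7.90 in Y261A cells against 8.09, 8.22 and 8.24 in vector cells. These values overlapped, and the difference was -0.13 ± 0.09 (adjusted p = 0.711). FOSL1, an AP-1 subunit with a DEF motif, differed by 0.06 ± 0.05 (adjusted p = 0.728). In the EGFR family, LRIG1, which promotes turnover of EGFR, fell by 0.21 (SE 0.03, adjusted p = 0.0269) at 6.67 ± 0.00 in Y261A cells and 6.88 ± 0.00 in vector cells (SD, n = 3 each).

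CXADR, a tight junction adhesion protein, measured 6.43, 6.51 and 6.42 in Y261A cells against 7.19, 7.02 and 6.90 in vector cells. The vector arrays spread more widely than the Y261A arrays without reaching them, and CXADR fell by 0.58 (SE 0.08, adjusted p = 0.0398, and 0.136 without replicate 3). EHF, an ETS family factor of epithelial cells, fell by 0.56 (SE 0.07, adjusted p = 0.0269). Of 28 adherens and tight junction genes CXADR was the only call, with 1 higher and 10 lower at an unadjusted p under 0.05 and a median of -0.06. That median was -0.03 with quantile normalization. At the same unadjusted p, 2.95% of all genes were higher and 7.40% lower, and 0.214% of all genes were called lower. EPCAM, an epithelial adhesion molecule, measured 8.23, 8.22 and 8.22 in Y261A cells against 8.97, 9.01 and 8.67 in vector cells, a difference of -0.66 ± 0.11 that was not called (adjusted p = 0.093). CDH1, which encodes E-cadherin, differed by -0.19 ± 0.07 (adjusted p = 0.405), and the mesenchymal genes VIM and ZEB1 by -0.15 ± 0.06 and 0.15 ± 0.06 (adjusted p = 0.472 and 0.469). None of 11 EMT transcription factors was called by limma, and 1 had an unadjusted p under 0.05.

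Of 34 interferon response genes, 3 fell and none rose, with a median of -0.02, and without replicate 3 none of them was called. At an unadjusted p under 0.05, 8 members were lower and none higher. Among all genes tested, 0.214% were called lower, and 2.95% were higher and 7.40% lower at an unadjusted p under 0.05. IFITM2, a membrane protein that blocks virus entry, measured 11.49, 11.41 and 11.34 in Y261A cells against 11.95, 12.06 and 11.93 in vector cells and fell by 0.56 (SE 0.06, adjusted p = 0.0248). Its neighbour IFITM1 fell by 0.40 (SE 0.05, adjusted p = 0.0284), and IFITM3 differed by -0.44 ± 0.06 without a call (adjusted p = 0.0554). The IFITM genes on chromosome 11 are close in sequence and may share signal. OAS1, the sensor of double-stranded RNA, fell by 0.33 (SE 0.03, adjusted p = 0.0158). Of 24 lysosome and sorting genes, SORL1 and the lysosomal membrane proteins LAPTM5 and LAPTM4B fell and none rose, with a median of -0.01. In that list 1 member was higher and 4 were lower at an unadjusted p under 0.05. LAPTM5 measured 6.55, 6.41 and 6.48 in Y261A cells against 7.12, 7.08 and 7.26 in vector cells, a difference of -0.68 (SE 0.08, adjusted p = 0.0218, and 0.0865 without replicate 3). SYTL5, a RAB27 effector in secretion, fell by 0.69 at 3.73 in Y261A cells and 4.42 in vector cells, under the background mean. RAB17, a RAB of epithelial recycling endosomes, fell by 0.23, and the carboxypeptidase CPVL by 0.24.

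Metabolic genes were also among the falls. PSAT1, the aminotransferase of serine synthesis, measured 8.76, 8.69 and 8.56 in Y261A cells, 7.87, 7.68 and 7.88 in D319N cells and 9.38, 9.32 and 9.24 in vector cells. It fell by 0.64 against vector (SE 0.07, adjusted p = 0.0225, and 0.0657 without replicate 3). PHGDH, the enzyme before it in the pathway, differed by -0.28 ± 0.04 and was not called (adjusted p = 0.0635). DDIT4, a stress-induced inhibitor of mTORC1, fell by 0.47 (SE 0.06, adjusted p = 0.0284). These were the 2 calls among 23 genes of serine synthesis and ATF4 targets, which had 1 higher and 12 lower members at an unadjusted p under 0.05 and a median of -0.07. Of all genes tested, 0.214% were called lower, and 2.95% were higher and 7.40% lower at that unadjusted p. SLC1A3, a glutamate and aspartate transporter, measured 5.98 on all 3 Y261A arrays against 6.41, 6.35 and 6.37 on the vector arrays and fell by 0.40 (SE 0.03, adjusted p = 0.00701). The lipid genes SCD and LPIN1, a phosphatidate phosphatase, fell by 0.51 (adjusted p = 0.0269) and by 0.38 (adjusted p = 0.0109), and CYP4X1, a cytochrome P450, by 0.52 (adjusted p = 0.0353). NDUFA6, a subunit of respiratory complex I, fell by 0.22.

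COBL, an actin nucleator, fell by 0.43, LIMCH1, an activator of nonmuscle myosin, by 0.30, and ARHGAP26, a GTPase activator for RHOA and CDC42, by 0.27, each with an adjusted p of 0.0109. PODXL, an apical sialomucin, averaged 7.21 ± 0.02 in Y261A cells and 7.48 ± 0.01 in vector cells (SD, n = 3 each) and fell by 0.27 (adjusted p = 0.00778). NUP210, a membrane protein of the nuclear pore, fell by 0.43 (SE 0.04, adjusted p = 0.00902). FAM83D, which positions the mitotic spindle, measured 7.61, 7.59 and 7.53 in Y261A cells against 7.97, 8.13 and 8.08 in vector cells and fell by 0.48 (SE 0.05, adjusted p = 0.0218). The smallest called fall was that of NHP2, a protein of H/ACA snoRNA particles and telomerase, at -0.13 (adjusted p = 0.0441). The differences of the falls not described further ranged from -0.18 (CDK18) to -0.39 (ZNF462). They include USP17L4, H1-1 and RNA5SP267, which belong to families of similar sequence. USP17L4 lay under the background mean, at 4.49 in Y261A cells and 4.74 in vector cells.

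G2 and mitosis genes lay slightly lower in Y261A cells, with no member called. None of 37 G2 and mitosis genes was called by limma, while 27 were lower and none higher at an unadjusted p under 0.05, a direction that 7.40% of all genes showed. The median difference was -0.19, against 0.00 over all genes. The member with the smallest p was CKS2, a CDK-binding protein, at 9.23, 9.14 and 9.10 in Y261A cells and 9.66, 9.55 and 9.59 in vector cells (-0.44 ± 0.06, adjusted p = 0.0534). By array, the median deviation of the list from the vector mean was -0.14, -0.17 and -0.25 on the Y261A arrays and 0.04, 0.04 and -0.07 on the vector arrays. The list has a median level of 8.46, where all genes also lay lower on the Y261A arrays, and its median was -0.16 without replicate 3 and -0.10 with quantile normalization. Chaperone genes (26 measured, 11 lower at an unadjusted p under 0.05, median -0.12) and cytosolic ribosomal protein genes (27 measured, 12 lower, median -0.11) also had no call by limma. Their medians were 0.01 and -0.01 with quantile normalization, and their median levels were 8.89 and 9.30. The part of signal level in these shifts was not tested further.

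**Figure D5:**
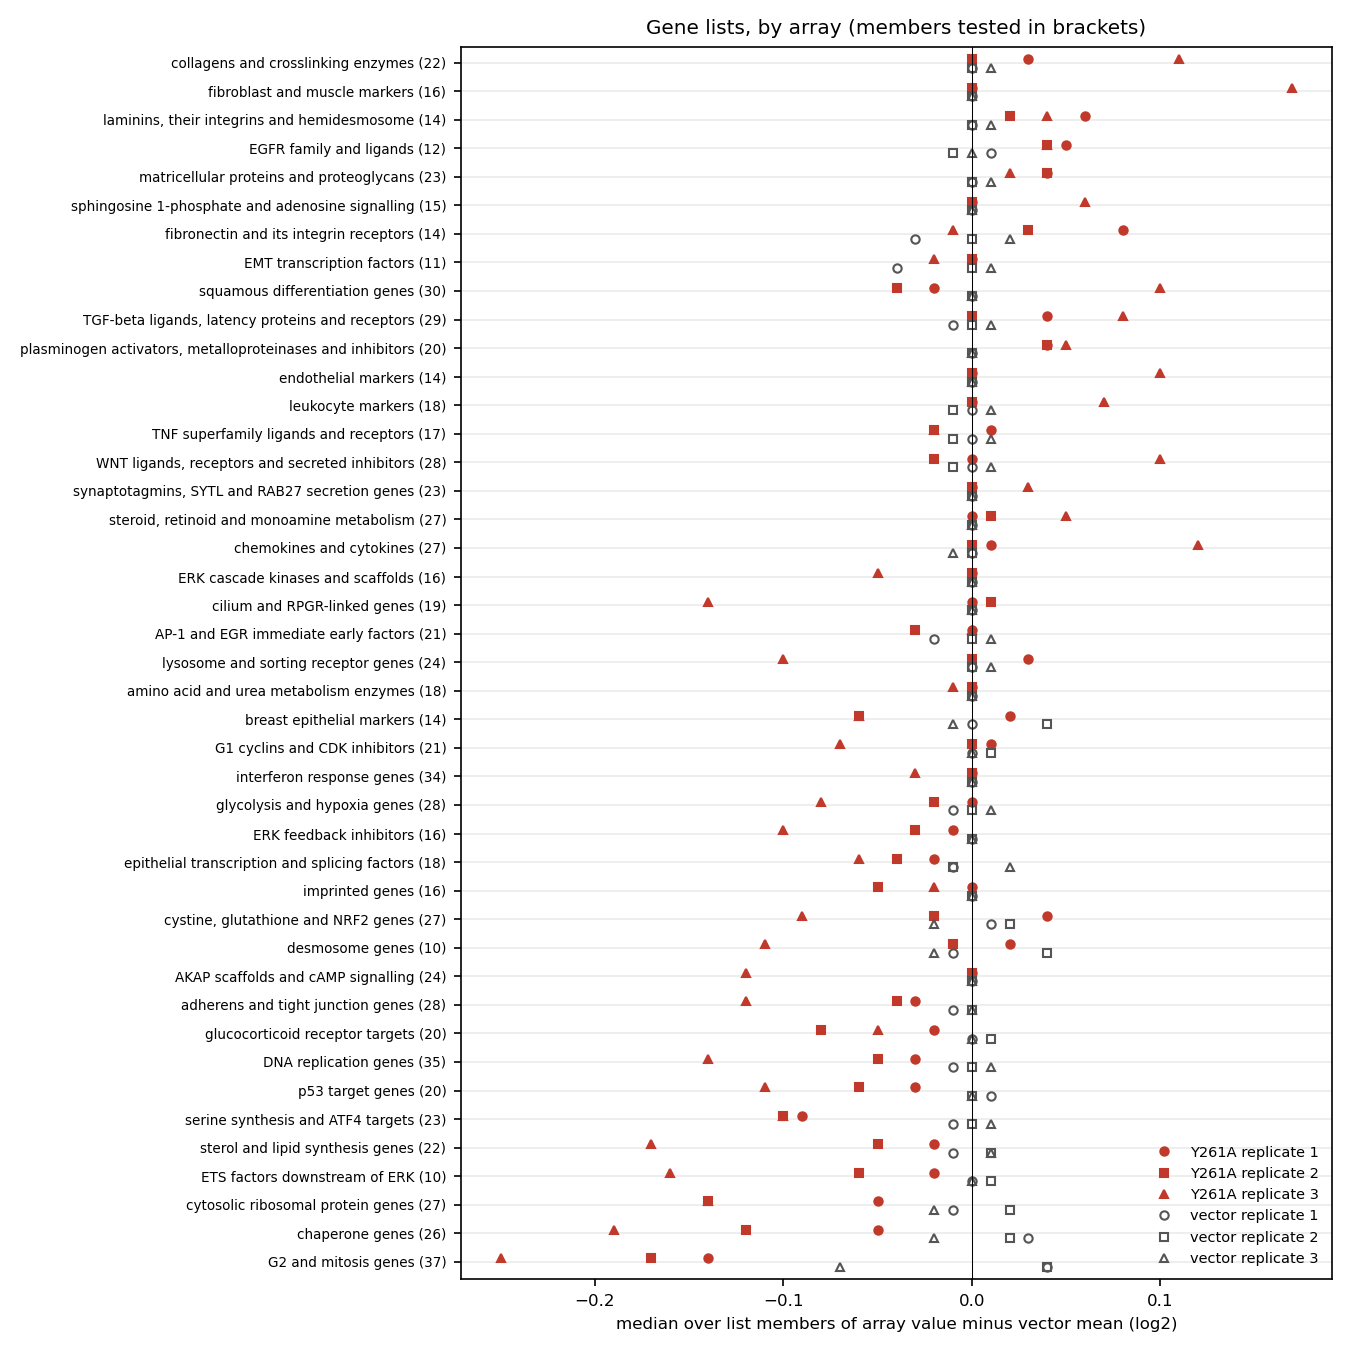
Median deviation from the vector mean, in log2 units, for the gene lists on each Y261A array and each vector array, with the lists down the page. The G2 and mitosis list lies lowest, at -0.14, -0.17 and -0.25 on the Y261A arrays, and in many lists Y261A replicate 3 lies farther from 0 than the other Y261A arrays.

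In most of the other gene lists 1 member at most was called, and their medians lay close to 0. Of all genes tested, 0.138% were called higher and 0.214% lower, and 10.4% reached an unadjusted p under 0.05. A single member rose among 29 genes of TGF-beta ligands, latency proteins and receptors (LTBP1, median 0.03), 24 genes of AKAP scaffolds and cAMP signalling (AKAP12, -0.04), 15 genes of sphingosine 1-phosphate and adenosine signalling (NT5E, 0.04) and 19 genes linked to RPGR and the cilium (RPGR, 0.00). A single member fell among 17 TNF superfamily genes (CD70, median 0.02), 16 imprinted genes (PEG10, -0.03), 23 synaptotagmin and RAB27 secretion genes (SYTL5, 0.02), 22 sterol and lipid synthesis genes (SCD, -0.08), 18 epithelial transcription and splicing factors (EHF, -0.03) and 12 genes of the EGFR family (LRIG1, 0.04). No member was called by limma among 35 DNA replication genes (5 at an unadjusted p under 0.05, median -0.07), 21 G1 cyclins and CDK inhibitors (3, -0.02), 20 p53 targets (5, -0.07) and 28 glycolysis and hypoxia genes (10, -0.02). The same held for 20 glucocorticoid receptor targets (7, -0.06), 10 desmosome genes (4, -0.04) and 30 squamous differentiation genes (2, 0.03). Of the 79 called genes, 34 belonged to a list.

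Of 16 fibroblast and muscle markers, DCN and FAP rose, and the mean level of the list was 5.68 to 5.77 on the Y261A arrays and 5.59 to 5.61 on the vector arrays, with 4 of the 16 under the background mean in vector cells. The median deviation of that list from the vector mean was 0.00, 0.00 and 0.17 on Y261A replicates 1, 2 and 3. The smooth muscle gene ACTA2 differed by -0.14 ± 0.07 (adjusted p = 0.595) and POSTN, a fibroblast matrix gene, by 0.37 ± 0.06 (adjusted p = 0.0797) at 3.69 in Y261A cells, under the background mean. None of 14 endothelial or 18 leukocyte markers was called by limma, with 1 and 2 at an unadjusted p under 0.05. Of these, 5 endothelial and 6 leukocyte markers lay under the background mean in vector cells. The part of other cell types in the rises of DCN and FAP was not tested. Of 14 breast epithelial markers none was called, with 3 higher and 6 lower at an unadjusted p under 0.05. Beside these 4 marker lists, 0.138% of all genes were called higher and 0.214% lower. An unadjusted p under 0.05 was reached by 10.4% of all genes, 2.95% higher and 7.40% lower. KRT5, a basal keratin, measured 12.51, 12.41 and 12.35 in Y261A cells against 12.78, 12.82 and 12.74 in vector cells (-0.35 ± 0.06, adjusted p = 0.0667). Its partner KRT14 measured 7.31, 7.30 and 7.31 in Y261A cells against 6.94, 7.02 and 6.95 in vector cells (0.34 ± 0.05, adjusted p = 0.0593). The keratin pair thus leaned in opposite directions without a call for either. Over all genes, the median difference was -0.12 at levels from 10 to below 15, where KRT5 lies. It was -0.01 from 6 to below 8, where KRT14 lies. The part of signal level in the difference of KRT5 was not tested.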

How the data were processed

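RNA of 9 MCF-10A samples was hybridised to Affymetrix whole-transcript arrays as biotin-labelled cDNA, per the labels' protocols. The deposited values are log2 signals, for which the submitters' processing notes name RMA and Affymetrix Expression Console 1.4. Values were tied within a group for 14207 of 22411 genes (63.4%), which may understate spreads; the median polish of RMA can return ties. Array values carry no counts, and precision is limited by the 3 arrays of each group.

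The platform annotation gave 1 gene symbol to 23781 of 70523 rows. Symbols were updated through a RefSeq table (GRCh38.p14), which changed 306 and left 4 unmatched. Where a gene had several rows (528 genes), the one highest on average was kept. The 23 background probe sets averaged 4.85. The level of the induced transcript is not reported here.

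A group-means model over all 9 arrays was fitted with limma 3.58.1 in R 4.3.3 (lmFit, eBayes, 6 residual and 1.23 prior degrees of freedom). Benjamini-Hochberg adjustment ran over 22411 genes, and genes were called at an adjusted p under 0.05. Errors of differences are moderated standard errors. The fit was tested on simulated data built from the measured means and spreads, with 50 genes altered at each of 4 sizes between Y261A and vector. It recovered 17 at 1.2-fold, 41 at 1.5-fold, 47 at 2-fold and 50 at 4-fold, and called 15 unaltered genes. The simulated noise was independent between genes and arrays and held no ties. The simulation thus does not show how ties or the deviation of Y261A replicate 3 act on the calls.

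The genes named are the called genes, up to 4 members of each of 43 gene lists with the smallest p, a fixed set of 15 genes and the 5 genes just outside the threshold. The members and lists were chosen with earlier results of these data known. Lists are described by counts and medians. As alternatives, single arrays were omitted, the replicate number was added as a block, arrays were rescaled, genes were filtered by level, and the variance model was changed. In further fits the D319N arrays were left out.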

Additional observations from a re-analysis of the deposited data

How the results depend on the processing

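The 79 calls ranged from 9 to 133 when 1 array was left out, so their number depends on single arrays. The count was 13 with the replicate number as a block, and all 13 were among the 79. It was 45 with arrays centred on their medians (42 shared), 134 with quantile normalization (65 shared), 988 with array weights, 293 with a spread floor for tied genes (51 shared) and 157 without D319N replicate 2 and Y261A replicate 3 together (58 shared). Over the 6 Y261A and vector arrays alone the count was 73, and only 45 of these were among the 79. Over 5 arrays, Y261A replicates 1 and 2 and vector, an unplanned setting, 89 were called (25 shared). With a moderated variance floor for tied genes, chosen after seeing the data, 16 were called. The cause of these changes was not tested. Higher genes made up 39.2% of the calls as reported, 31.1% with centring, 58.2% with quantile normalization and 60.9% without Y261A replicate 3, so neither direction prevails throughout. Same-numbered Y261A and vector arrays deviated from their group means with correlations of -0.02, -0.08 and 0.00. With 3 arrays a group, these values cannot decide whether the numbers pair the samples, and the labels name no pairing. The count between Y261A and D319N, 3281, ranged from 1941 to 5302 without 1 array and was 10403 with array weights and 6259 without D319N replicate 2 and Y261A replicate 3. The count between D319N and vector was 11631 and 7979 under these settings. Array weights turned the prevailing direction in both, to 6061 higher and 4342 lower in Y261A than in D319N and to 4459 higher and 7172 lower in D319N than in vector. The joint omission did so for D319N against vector alone (3527 higher and 4452 lower). Of the genes not called, CDH2 turned from -0.05 to 0.01 without Y261A replicate 3, as it did without that array and D319N replicate 2 or over 5 arrays, and to 0.00 with array weights. DUSP6 turned from -0.01 to 0.07 under the same 3 omissions, 0.02 and 0.00 without vector replicates 1 and 2, 0.03 with quantile normalization and 0.05 with array weights. SPRY4 was 0.01 with array weights, and MAPK3 lay between -0.01 and 0.00. FN1 and HSD17B2 were called under every alternative run.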

Other observations

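Outside the rows with 1 gene symbol there were 43747 rows with several symbols or none, which name no gene here. In a separate fit over them, 2 were called by limma as higher in Y261A cells and 3282 had an unadjusted p under 0.05. The first measured 8.70, 8.70 and 8.66 in Y261A cells, 11.28, 11.13 and 11.31 in D319N cells and 7.41, 7.43 and 7.51 in vector cells, a difference from vector of 1.24 ± 0.06 (log2, SE, adjusted p = 0.00102). At 2.35-fold it is the only row besides those of HSD17B2 and FN1 past a 2-fold difference with a call. The second measured 11.18, 11.09 and 11.01 in Y261A cells, 12.34, 12.27 and 12.33 in D319N cells and 10.45, 10.48 and 10.48 in vector cells, a difference of 0.62 ± 0.05 (adjusted p = 0.0412).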
